A study of Homo sapiens with 5 samples.

Results

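Promoter peaks of 2 transcription factors (TFs), MYC and Fra-1, were compared gene by gene in LM2 cells. LM2 is a metastatic subline of the human breast cancer line MDA-MB-231, and all samples came from these cells without further treatment in the labels. Each factor was measured by chromatin immunoprecipitation followed by sequencing (ChIP-Seq) in 1 library, with the antibody sc-764 for MYC and sc-183 for Fra-1, and 1 input DNA library served as background for both. A protein-coding gene was assigned to a factor when a peak of it overlapped, by at least 1 bp, the window from 2 kb upstream to 2.5 kb downstream of any of its transcription start sites (TSS) in hg19. Of 20098 protein-coding genes on chromosomes 1 to 22 and X, 5308 (26.4%) had a promoter peak of either factor. These 5308 genes fell into 3 sets, namely 2646 with MYC alone, 1721 with Fra-1 alone and 941 with both. MYC had 4867 peaks from 23853621 tags and Fra-1 had 17320 peaks from 12931227 tags, and the input had 10758036 tags. With 1 library per factor there is no spread between cultures. No comparison below could therefore be tested between cultures, and the 95% intervals (Wilson for shares, binomial order statistics for medians) cover counting error over genes or summits only. Genes that share a promoter or a peak are not independent of each other.

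MYC is a basic helix-loop-helix leucine zipper protein that binds DNA with its partner MAX, most strongly at a palindromic E-box. It is known for driving growth, in particular ribosome production, translation and nucleotide supply. Fra-1, the product of FOSL1, is a subunit of the AP-1 factor and binds DNA together with JUN proteins. AP-1 responds to growth factor signalling through MAP kinases and is known for genes of adhesion, the cytoskeleton, matrix remodelling and inflammation, often at sites far from promoters.

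The DNA by the summits differed between the sets. CACGTG (the E-box, which reads the same on both strands) lay within 50 bp of 18.6% of the MYC summits of genes with MYC alone. TGACTCA or TGAGTCA (the AP-1 motif, each the reverse complement of the other) lay within 50 bp of 54.2% of the Fra-1 summits of genes with Fra-1 alone. The stretches below hold a motif more often than this. Looked up but not shown, and without either motif, were PPAN, KLF16, HNRNPAB and MNT (MYC alone). The same held for IGFN1, LAMA2 and ANKRD1 (Fra-1 alone) and for TTC3 and RPL29 (both). The motifs were searched on both strands and may abut, as in the DNAJB5 stretch below, where CACGTG follows TGAGTCA directly. The stretches are from GRCh37, plus strand, in lower case with the motif in capitals. They cover 61 to 69 bases, or 29 bases where the annotation has a UTR exon. A stretch of 29 bases with a motif is centred on the motif and need not hold the summit, and its line gives the distance between them. The first group shows genes with MYC alone, with a growth gene (RPL5, a ribosomal protein of the large subunit) that had neither motif in its stretch, and with GNL3 (nucleostemin, a nucleolar GTPase).
CCDC47, chr17:61851197-61851225, motif 3 bp from the MYC summit: gctgtgtgggacCACGTGgccagaggcaa
G6PC3, chr17:42148038-42148066, motif 13 bp from the MYC summit: tgcaacagtggcCACGTGgggccctgagg
GNL3, chr3:52720042-52720070, motif 12 bp from the MYC summit: ggcttcagttcaCACGTGgcgccagcgga
RPL5, chr1:93297737-93297765, MYC summit: gccagcctagggcccgtctcgcgcgtcgc

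The second group shows genes with Fra-1 alone, among them the actin-severing protein gelsolin (GSN), the keratin KRT80 and the endoplasmic reticulum protein reticulon 4 (RTN4). DRAP1, a repressor of transcription initiation, had the largest Fra-1 fold enrichment and neither motif in its stretch.
DNAJB5, chr9:34992535-34992595, Fra-1 summit: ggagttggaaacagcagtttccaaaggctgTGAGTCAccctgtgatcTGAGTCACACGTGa
SPATA12, chr3:57094604-57094664, Fra-1 summit: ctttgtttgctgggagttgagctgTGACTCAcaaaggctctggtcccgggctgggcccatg
RTN4, chr2:55278478-55278538, Fra-1 summit: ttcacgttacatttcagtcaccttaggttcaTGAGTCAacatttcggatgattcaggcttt
KRT80, chr12:52586116-52586176, Fra-1 summit: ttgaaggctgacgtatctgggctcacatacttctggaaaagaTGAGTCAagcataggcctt
GSN, chr9:124044281-124044341, Fra-1 summit: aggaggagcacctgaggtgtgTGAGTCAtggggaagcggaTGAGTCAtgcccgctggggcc
DRAP1, chr11:65686813-65686841, Fra-1 summit: gtcttaaccggcggcgctaggactccgcg

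The third group shows genes with both. NME1 (a nucleoside diphosphate kinase) and AEN (a nuclease) had an E-box by the MYC summit and an AP-1 motif by the Fra-1 summit. At PRR7 and S100A2 (a calcium-binding protein of the S100 family), an AP-1 motif lay by the summits of both factors, and at PRR7 it was the same motif.
NME1, chr17:49230942-49230970, motif 31 bp from the MYC summit: agtgctgcgaacCACGTGggtcccgggcg
NME1, chr17:49230711-49230771, Fra-1 summit: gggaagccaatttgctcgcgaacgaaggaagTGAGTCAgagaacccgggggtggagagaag
AEN, chr15:89164567-89164595, motif 37 bp from the MYC summit: ctttccggacgcCACGTGcagaccggaag
AEN, chr15:89166491-89166551, Fra-1 summit: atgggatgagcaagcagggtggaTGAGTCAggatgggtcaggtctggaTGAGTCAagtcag
PRR7, chr5:176874951-176875015, MYC summit: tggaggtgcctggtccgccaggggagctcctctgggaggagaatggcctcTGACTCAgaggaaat
PRR7, chr5:176874993-176875061, Fra-1 summit: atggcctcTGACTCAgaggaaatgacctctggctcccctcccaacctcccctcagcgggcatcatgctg
S100A2, chr1:153539159-153539187, motif 5 bp from the MYC summit: tcagccctaagTGACTCAcccgaggttcc
S100A2, chr1:153539197-153539225, motif 12 bp from the Fra-1 summit: tgcccaggcagTGACTCAgcggcacaccc

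The first question was how far the target genes of the 2 factors coincide. A MYC promoter peak was found at 3587 genes (17.8%) and a Fra-1 promoter peak at 2662 genes (13.2%). MYC alone accounted for 13.2% of all genes (95% CI 12.7 to 13.6), Fra-1 alone for 8.56% (8.18 to 8.96) and both for 4.68% (4.40 to 4.98). Of the genes with MYC, 26.2% also had Fra-1, against 10.4% of the genes without MYC. Of the genes with Fra-1, 35.3% also had MYC. The product of the shares of the 2 factors corresponds to 475.1 genes with both, so that 941 was 1.98 times this product. When the product was taken among genes with the same number of TSS, it was 586.2 and the ratio was 1.61, and among the 12321 genes with an E2F1 promoter peak it was 720.2 and the ratio 1.30. The ratio was 4.43 for genes with 1 TSS, where 43 of 3239 genes had both, and 1.20 for genes with 25 or more TSS, where 65 of 560 had both. With canonical TSS only, 888 genes had Fra-1 alone and 559 both, and with equal numbers of peaks 426 and 263. With a −log10 q of at least 5, 625 genes had both. The lists differ in where their peaks lie. Of the MYC peaks on these chromosomes, 3908 of 4857 (80.5%) overlapped a promoter window of a protein-coding gene, and of the Fra-1 peaks 3157 of 17311 (18.2%). A MYC promoter peak lay in the windows of 2 or more genes in 25.3% of cases and a Fra-1 promoter peak in 8.33%. A Fra-1 peak inside the gene but outside the windows was present at 12.7% of the genes with MYC alone, 35.7% with Fra-1 alone and 27.3% with both. The sets are therefore sets of promoter targets, and 337 of the 2646 genes with MYC alone had such a Fra-1 peak within the gene.

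Gene functions differed between the sets, most clearly for the machinery that makes ribosomes. Of 86 genes for cytosolic ribosomal proteins, 67 (77.9%) had MYC alone, 12 had both, none had Fra-1 alone and 7 had neither, beside 13.2%, 4.68% and 8.56% of all genes. Their median MYC fold enrichment was 10.7, where the median over all genes with MYC was 7.22. RPL5 had a MYC fold enrichment of 28.2, with its summit 85 bp downstream of a TSS. RPL29 had the next largest at 26.5 and also had a Fra-1 peak of 8.82. The upper limit of the Wilson interval for the share with Fra-1 alone was 4.28%. Of 106 genes for nucleolar ribosome biogenesis, which process and assemble ribosomal RNA, 79 had MYC alone, 10 had both, 1 had Fra-1 alone and 16 had neither, with a median MYC fold enrichment of 9.75. PPAN, a factor for the large subunit, reached 25.7 and GNL3 reached 22.1. NOLC1 and NOP58, which serve small nucleolar RNA complexes, had both factors. Their Fra-1 fold enrichments of 12.6 and 9.91 were the largest in this list.

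The other translation lists also had more members with MYC alone than with Fra-1 alone. Synthetases, factors and mitochondrial ribosomal proteins had shares with MYC alone of 56.8, 48.5 and 39.7%, beside 13.2% of all genes. Their shares with Fra-1 alone had Wilson intervals with upper limits of 9.41, 12.2 and 12.5%. These intervals include the 8.56% of all genes. Of 37 aminoacyl-tRNA synthetases, which load tRNAs, 21 had MYC alone, 2 had both, none had Fra-1 alone and 14 had neither. YARS1, which loads tyrosine, combined a MYC fold enrichment of 25.5 with a weak Fra-1 peak of 4.66. Of 68 genes named as initiation or elongation factors (the name pattern also takes the methyltransferases of EEF1A), 33 had MYC alone, 13 both, 3 Fra-1 alone and 19 neither. EIF3D, a subunit of the initiation factor eIF3, had a MYC fold enrichment of 20.1. EIF5 and EIF5A2 had both factors, with Fra-1 fold enrichments of 12.9 and 13.8. Of 78 mitochondrial ribosomal protein genes, 31 had MYC alone, 4 Fra-1 alone, 4 both and 39 neither, and MRPL3 led with a MYC fold enrichment of 18.0. Unlike the cytosolic list, this list thus held many members with neither (50%), though fewer than all genes (73.6%).

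Lists for nucleotides, RNA, protein turnover, respiration and the cell cycle also had more members with MYC alone than with Fra-1 alone. The share with MYC alone was above the 13.2% of all genes in each. The share with Fra-1 alone was below the 8.56% of all genes except for proteasome subunits (10.3%) and DNA replication (8.93%). Between 30.6% (nucleotide synthesis) and 67.8% (respiratory chain) of the members had neither, beside 73.6% of all genes. Of 36 genes for nucleotide synthesis, 20 had MYC alone, 4 both and 1 Fra-1 alone. NME1 had 18.9 for MYC and 13.6 for Fra-1, whereas its neighbour NME2 had MYC alone at 14.3. Of 73 splicing factors, 30 had MYC alone, 12 both and 3 Fra-1 alone, led by HNRNPAB with a MYC fold enrichment of 19. Of 34 RNA polymerase subunits, 12 had MYC alone, 6 both and 1 Fra-1 alone. POLR1G, a subunit of RNA polymerase I, had 12.7 for MYC and 21.3 for Fra-1, and POLR1C, shared by polymerases I and III, had MYC alone at 12.5. Of 39 proteasome subunits, 14 had MYC alone, 4 Fra-1 alone and 2 both, and PSMD2 had the largest Fra-1 value in this list, with Fra-1 alone at 14.8. Of 79 chaperonins and heat shock proteins, 26 had MYC alone, 5 Fra-1 alone and 6 both. HSP90AB1, the constitutive cytosolic HSP90, had both, with a MYC fold enrichment of 17.9 and a Fra-1 fold enrichment of 5.91. HSPA5, the chaperone of the endoplasmic reticulum, had Fra-1 alone at 14.6. Of 87 genes of the respiratory chain and ATP synthase, 21 had MYC alone, 4 Fra-1 alone and 3 both, so that 59 had neither. Of 56 DNA replication genes, 18 had MYC alone, 5 Fra-1 alone and 5 both. Of 70 genes for mitosis and the kinetochore, 21 had MYC alone, 2 Fra-1 alone and 5 both, and BIRC5 (survivin) had 10.3 for MYC and 7.60 for Fra-1.

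Adhesion and the cytoskeleton lay on the Fra-1 side, although with equal numbers of peaks more members of both lists had MYC alone. Of all genes, 13.2% had MYC alone and 8.56% Fra-1 alone, and with equal numbers of peaks 16.5% and 2.12%. The integrin list then had 18.4% and 13.2%, and the actin list 16.4% and 5.97%. With canonical TSS only, all genes had 13.1% with MYC alone and 4.42% with Fra-1 alone. The integrin list had 6.58% and 13.2% in that setting, and the actin list 8.96% and 10.4%. The median gene length was 80577 bp in the integrin list and 39341 bp in the actin list, and that of all genes 27257 bp. Of 76 genes for integrins, laminins and focal adhesion, 21 (27.6%) had Fra-1 alone, 13 had both, 3 had MYC alone and 39 had neither. LAMA2, a laminin chain of the basement membrane, had the largest Fra-1 fold enrichment (21.7), at a TSS within the gene. CD44, the hyaluronan receptor, had both, with 16.1 for Fra-1 and 5.86 for MYC. FLNA (filamin A) and VASP, which organise actin filaments, also had both, with MYC fold enrichments of 9.96 and 9.30, the largest MYC values in this list. Of 67 actin and actomyosin genes, 19 had Fra-1 alone, 10 both, 5 MYC alone and 33 neither. GSN had a Fra-1 fold enrichment of 25 and LASP1, an actin-binding scaffold, had 21.4 beside a MYC peak of 5.91.

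The matrix and epithelial lists had few members with MYC alone, beside 13.2% of all genes with MYC alone and 8.56% with Fra-1 alone. Only for the matrix proteases did the order turn with equal numbers of peaks (4 with Fra-1 alone and 6 with MYC alone). These were 5.71% and 8.57% of that list, beside 2.12% and 16.5% of all genes in this setting. With canonical TSS only, 9.09% of the collagens (median length 144750 bp) had Fra-1 alone, beside 4.42% of all genes. The share was then 8.57% for matrix proteases, 8.16% for the keratin list and 15.6% for the S100 list. Of 44 collagens, 12 had Fra-1 alone, 2 had both and none had MYC alone. COL7A1, the anchoring fibril collagen, had a Fra-1 fold enrichment of 27.2 and a MYC fold enrichment of 5.24. Of 70 matrix proteases and genes of the plasminogen system, 12 had Fra-1 alone, 3 MYC alone and 3 both, and PLAT, tissue plasminogen activator, led for Fra-1 at 15.0. Of 98 keratins, desmosomal proteins and claudins, 14 had Fra-1 alone, 2 both and 1 (EVPL, envoplakin) MYC alone, and 81 had neither. KRT80 had a Fra-1 fold enrichment of 26.3. PKP3, a plakophilin of desmosomes, had 19.7 for Fra-1 and 5.67 for MYC. Of 32 S100 proteins and annexins, 7 had Fra-1 alone, 5 both and none MYC alone. S100A2 had 33.1 for Fra-1 and 7.94 for MYC, and ANXA2, an annexin of the cell surface and membrane skeleton, had 4 Fra-1 peaks with the strongest at 25.2.

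Most signalling lists were smaller, and in each of them more members had Fra-1 alone than MYC alone. Of all genes, 8.56% had Fra-1 alone and 13.2% MYC alone. The share with Fra-1 alone was above that of all genes in each of these lists except cytokines (7%). With equal numbers of peaks, Fra-1 alone remained the larger count for YAP and TAZ targets only (8 against 5). MAP kinase inhibitors then had 1 with Fra-1 alone and 6 with MYC alone, NF-kB 3 and 5, TGF-beta 3 and 5, cytokines 0 and 3, and the EGFR list none of either. Of all genes, 2.12% then had Fra-1 alone and 16.5% MYC alone. The share of the list with Fra-1 alone was then 25.8% for YAP and TAZ targets, 11.5% for NF-kB and 6.82% for TGF-beta. It was 2.56% for MAP kinase inhibitors and 0 for cytokines and the EGFR list. With canonical TSS only, the share with Fra-1 alone was 29.0% for YAP and TAZ targets, 21.4% for EGFR and 19.2% for NF-kB. It was then 15.4% for MAP kinase inhibitors, 7% for cytokines and 4.55% for TGF-beta, beside 4.42% of all genes. Of 14 genes of the EGFR family and its ligands, 6 had Fra-1 alone and 8 neither, and none had MYC (upper limit of the Wilson interval 21.5%). This interval includes the 17.8% of all genes with MYC. BTC (betacellulin, a ligand) had 10.6 and ERBB2 (the HER2 receptor) had 8.12. Of 39 MAP kinase phosphatases and feedback inhibitors, 7 had Fra-1 alone, 4 both and 3 MYC alone. DUSP6, a phosphatase of ERK, had 15.1 for Fra-1 and 6.85 for MYC. Of 26 NF-kB subunits and regulators, 9 had Fra-1 alone, 4 both and 1 MYC alone, with TNFAIP2 at 19.7 and TNIP1 at 15.5, both with Fra-1 alone. Of 31 targets and partners of YAP and TAZ, 12 had Fra-1 alone, 4 MYC alone and 2 both. ANKRD1, a common readout of YAP activity, had Fra-1 at 20.3, while TEAD4, a DNA-binding partner of YAP, had MYC alone at 9.30. Of 44 genes of TGF-beta signalling, 7 had Fra-1 alone, 3 MYC alone and 3 both. SMAD3 had 7 Fra-1 peaks with the strongest at 21.4 and a MYC fold enrichment of 5.01. Of 100 cytokines and chemokines, 7 had Fra-1 alone (beside 8.56% of all genes), 2 MYC alone, 1 both and 90 neither. The gene with both was IL6, with 6.79 for MYC and 6.89 for Fra-1. CSF2 (GM-CSF) had Fra-1 alone at 11.7, with its summit 38 bp upstream of its TSS.

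Lists with a broad or unrelated function differed from each other. Of 373 solute carriers, which lay close to the shares of all genes, 43 had MYC alone (11.5%), 32 Fra-1 alone (8.58%) and 24 both (6.43%). SLC3A2, the heavy chain of amino acid transporters, had 21.0 for MYC and 13.3 for Fra-1, at separate TSS. Of 508 zinc finger genes named ZNF, 72 had MYC alone (14.2%), 23 Fra-1 alone (4.53%) and 12 both (2.36%), so that the last 2 shares were below those of all genes. Of 414 olfactory receptors, 1 had Fra-1 alone and 413 had neither. Among all 32 lists, the share with MYC alone was larger than the share with Fra-1 alone in 18 and smaller in 14. Over all genes MYC alone was the larger as well, with 13.2% against 8.56%. The lists were chosen with earlier results of these data known, so this tally also reflects their choice. When the Fra-1 list was reduced to the number of MYC peaks, keeping its peaks of largest −log10 q, 426 genes had Fra-1 alone and 3324 had MYC alone. These were 2.12% and 16.5% of all genes. The share with Fra-1 alone was then the larger in 3 lists (keratins, YAP and TAZ targets, collagens). The order turned for 8 lists, namely integrins, actin, MAP kinase inhibitors, AP-1 genes, cytokines, NF-kB, matrix proteases and TGF-beta, and 3 lists (EGFR, S100 and olfactory receptors) were tied. Integrins, laminins and focal adhesion then held 14 genes with MYC alone and 10 with Fra-1 alone, which were 0.421% and 2.35% of these sets. The actin list held 11 and 4, or 0.331% and 0.939%. As a share of the set, cytokines were 0.0903% of the genes with MYC alone and 0 of the 426 with Fra-1 alone, while for the other 7 lists that turned the share of the set was larger with Fra-1 alone.

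**Figure D1:**
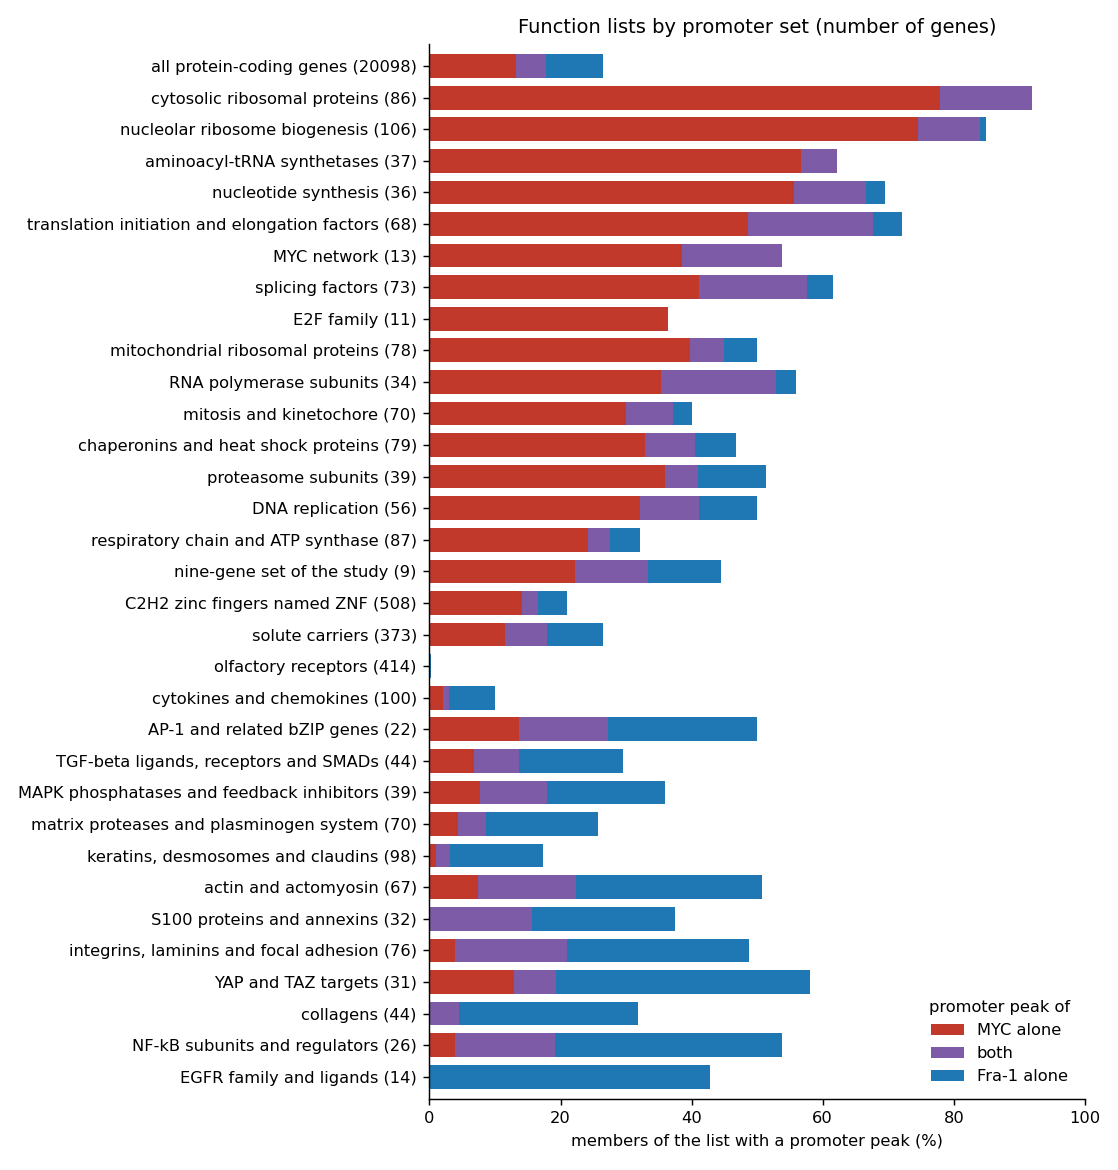
Share of each function list with a promoter peak, in percent of its members, split into genes with MYC alone (red), both (purple) and Fra-1 alone (blue). The number in brackets is the number of genes in the list, and the bar at the top is all 20098 protein-coding genes. Cytosolic ribosomal proteins (77.9% MYC alone) and nucleolar ribosome biogenesis (74.5%) are almost entirely red and purple, and collagens and the EGFR family have no red.

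The genes with the strongest peaks of each set were as follows. In genes with MYC alone, CCDC47 and DDX42 had the largest fold enrichment (30.2), from 1 peak in the region between them (E-box in the first stretch above). They were followed by G6PC3 (a glucose-6-phosphatase, 28.5), RPL5 (28.2), KLF16 (a zinc finger TF, 25.8), PPAN and its readthrough gene PPAN-P2RY11 (25.7), TFAP4 (24.8), IFRD2 (23.8) and NCBP2 (the small subunit of the nuclear cap-binding complex, 22.4). In genes with Fra-1 alone, DRAP1 stood at 91.1, followed by the heat shock protein gene DNAJB5 (43.7), the mRNA-binding protein gene IGF2BP2 (39.6), IGFN1 (39.0), SPATA12 (35.2), RTN4 (32.5), CARD19 (30.3), NCEH1 (29.7), the JNK kinase gene MAPK10 (27.3) and MAFK, a small MAF TF (27.2). The summit of DRAP1 also lay in a window of its neighbour C11orf68, which had in addition a MYC peak of 6.14 and was thus counted as having both. In genes with both, ranked by the smaller of the fold enrichments, TTC3 came first with 20.7 for MYC and 19.6 for Fra-1 and had 8 Fra-1 peaks. The glycolytic enzyme gene ENO1 had 16.9 and 18.6. FOSL1, which encodes Fra-1 itself, came next with 15.2 for MYC and 15.1 for Fra-1. FKBP10 and P3H4, neighbours on opposite strands that act in collagen modification, shared peaks of 24.8 and 15.1. AEN had 14.6 and 26.8, PRR7 13.8 and 18.8, and NME1 with its readthrough NME1-NME2 18.9 and 13.6. SF3B3, a splicing factor subunit, had 14.9 and 13.4, but its 2 summits lay 53576 bp apart at different TSS.

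Gene length was the second property compared, as the span of the gene in the annotation. Genes with MYC alone were shorter than genes with Fra-1 alone, with a median of 26428 bp (95% CI 24604 to 28047) against 53563 bp (49706 to 57943), a ratio of 0.493. Genes with both lay between, at 33101 bp (30159 to 36652), and the median of all genes was 27257 bp. The quartiles were 11181 and 56459 bp for MYC alone and 20564 and 133213 bp for Fra-1 alone, so the sets overlapped widely. By length quintile, the share of genes with a Fra-1 promoter peak was 6.77, 10.7, 13.6, 15.0 and 20.3% from the shortest to the longest genes. The share with MYC was 13.6, 20.03, 21.4, 20.3 and 14%, lowest at both ends. The longest gene with Fra-1 alone was CNTNAP2 (a neuronal adhesion protein, 2304997 bp), with MYC alone NLGN1 (a synaptic adhesion protein, 898089 bp) and with both CAMTA1 (984253 bp). Measured as the union of exons, the medians were 4798 bp for MYC alone, 6246 bp for Fra-1 alone and 5597 bp for both, a ratio of 0.768 between the first 2. With windows at the canonical TSS only, the ratio of gene lengths was 0.821, and 888 genes then had Fra-1 alone.

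The number of distinct TSS per gene differed less between the sets. The median was 8 for MYC alone (quartiles 4 and 12), 8 for Fra-1 alone (5 and 14) and 9 for both (5 and 15), against 4 for genes with neither. More TSS give more window, and the median length covered by the windows was 10455 bp for MYC alone, 15696 bp for Fra-1 alone, 14554 bp for both and 9011 bp for neither. The share of genes with a peak was larger with more TSS for both factors, from 6.39% to 30.7% for MYC and from 4.69% to 31.4% for Fra-1 between genes with 1 TSS and genes with 25 or more. The link between TSS and binding is partly built into the windows. The gene with most TSS was SMARCA2 (a chromatin remodelling ATPase, 66 TSS) for MYC alone, MAPK10 (125 TSS) for Fra-1 alone and SGCE (73 TSS) for both. The length ratio depended on the number of TSS. Among genes with 1 TSS, those with MYC alone were longer than those with Fra-1 alone (median 10968 against 6784 bp), a ratio of 1.62. The ratio was 0.910 for 2 to 3 TSS and 0.540, 0.471, 0.362 and 0.376 for the 4 further classes up to 25 or more TSS.

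**Figure D2:**
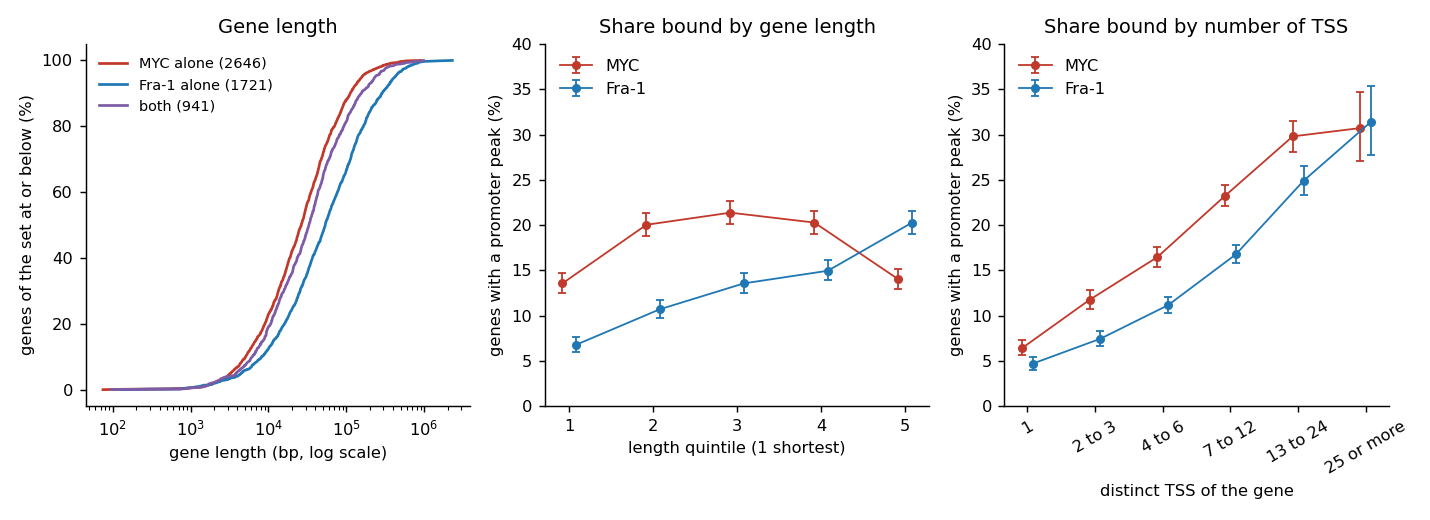
Left, cumulative share of genes by length (bp, log scale) for the 3 sets. Middle and right, share of genes with a MYC (red) or Fra-1 (blue) promoter peak by length quintile and by number of distinct TSS, with 95% Wilson intervals over genes as bars. The share with Fra-1 climbs to 20.3% in the longest quintile, where MYC stands at 14%, and both shares climb with the number of TSS.

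The strongest MYC summits lay close to the TSS and the strongest Fra-1 summits more widely. The strongest MYC summit was within 250 bp of a TSS of the gene for 70.1% of the genes with MYC alone and for 55.8% of the genes with both. For Fra-1 the shares were 35.7% with Fra-1 alone and 45.3% with both. The median distance was 112 bp for MYC alone, 174 bp for MYC at genes with both, 353 bp for Fra-1 at genes with both and 594 bp for Fra-1 alone. Measured to the canonical TSS, the MYC summit was within 1 kb for 85.1% of the genes with MYC alone, and the Fra-1 summit for 28.0% of the genes with Fra-1 alone. IGF2BP2 was not among the latter and had its Fra-1 summit 258 bp downstream of a TSS other than the canonical one. The MYC summit was upstream of the nearest TSS in 58.2% of the genes with MYC alone and the Fra-1 summit in 54.9% of the genes with Fra-1 alone. At genes with both, 2 or more peaks in the windows were more frequent, with 33.9% against 26.8% for MYC and 26.5% against 17.5% for Fra-1.

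**Figure D3:**
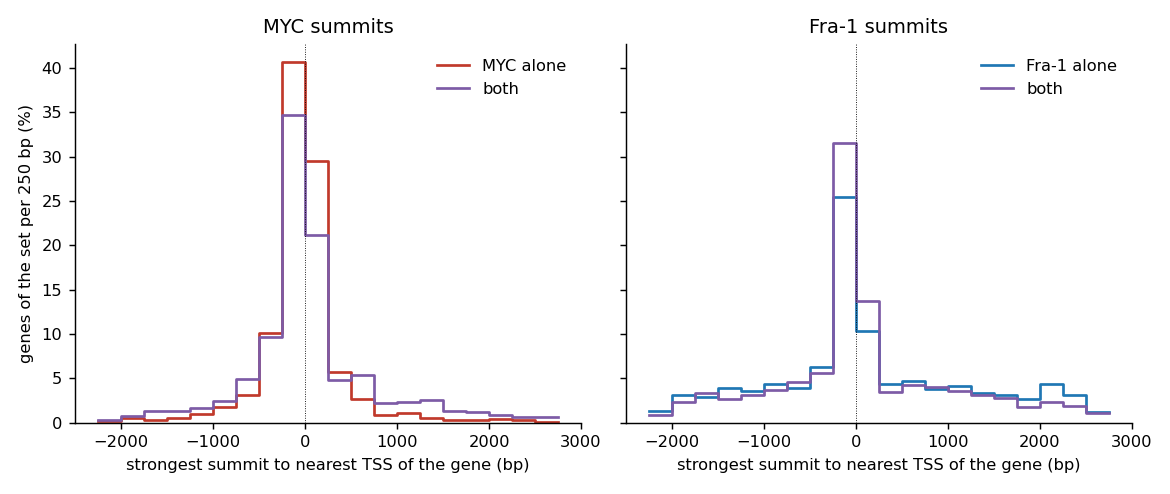
Position of the strongest MYC (left) and Fra-1 (right) summit of a gene relative to the nearest TSS of the gene, in bp with upstream negative, as percent of the genes of each set per bin of 250 bp. MYC summits gather at the TSS, with 70.1% within 250 bp at genes with MYC alone, and Fra-1 summits have a flat part over the whole window.

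Peak strength hardly differed between genes with 1 factor and genes with both. Strength was taken as the fold enrichment of the strongest peak of a gene, the ratio of its summit pileup to the local background. The median MYC fold enrichment was 7.12 (95% CI 6.99 to 7.27) with MYC alone and 7.32 (7.19 to 7.49) with both, a ratio of 1.03. The median Fra-1 fold enrichment was 8.22 (8.06 to 8.44) with Fra-1 alone and 8.65 (8.22 to 8.99) with both, a ratio of 1.05. With −log10 q as strength, the MYC median was 6.88 in either set. The Fra-1 median by this measure was 12.5 alone and 12.2 with both. The intervals overlapped for each factor, and the ratio fell below 1 under other settings, to 0.994 for MYC with peaks of a −log10 q of at least 5 and to 0.95 for Fra-1 with the pileup as strength. When the genes were divided into 4 groups of equal size by MYC fold enrichment, the share that also had Fra-1 was 24.6, 24.4, 29.1 and 26.8% from the weakest to the strongest. For groups by Fra-1 fold enrichment, the share that also had MYC was 33.2, 34.4, 33.7 and 40.1%. The weakest assigned peaks had a fold enrichment of 2.996 for MYC and 2.83 for Fra-1. The lowest −log10 q was 2.01 in the MYC list and 2.06 in the Fra-1 list, so peaks with a q above the cutoff of 0.01 are absent from both lists.

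**Figure D4:**
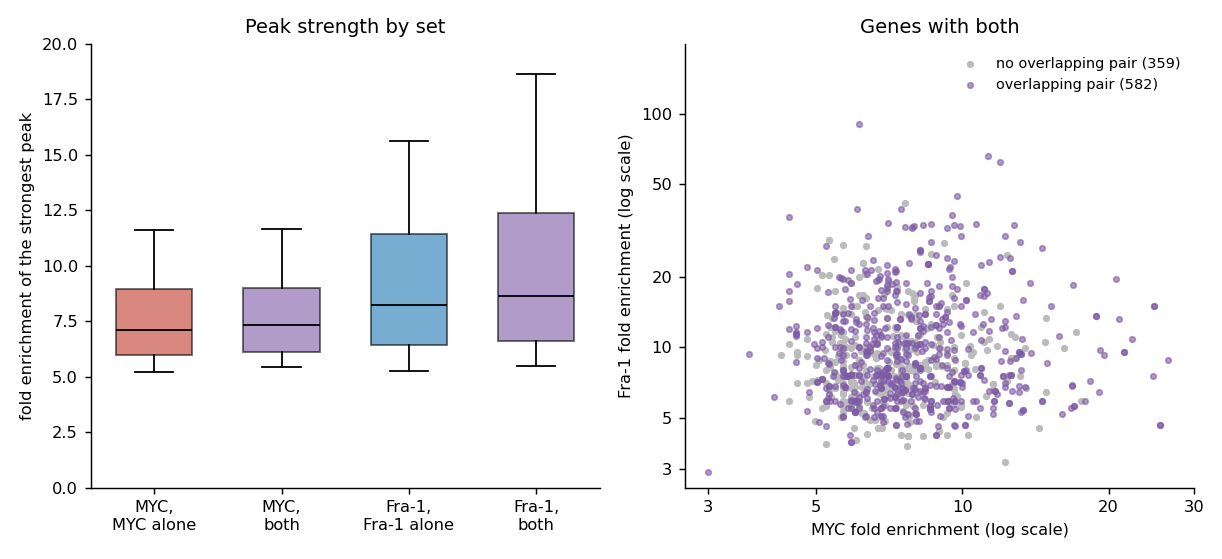
Left, fold enrichment of the strongest peak per gene for each factor and set, with the median as a line, quartiles as the box and the 10th and 90th percentiles as whiskers. Right, MYC against Fra-1 fold enrichment (log scales) at the 941 genes with both, purple where a peak of each overlap (582 genes) and grey where not (359 genes). The MYC medians are 7.12 and 7.32, the Fra-1 medians 8.22 and 8.65, and genes that share peaks fall on the same point.

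Genes with both did not always have both factors at the same place. A MYC and a Fra-1 peak overlapped by at least 1 bp at 582 of the 941 genes (61.8%), and their summits were within 50 bp at 313 genes (33.3%) and within 500 bp at 639. The median of the smallest distance between summits was 111 bp (quartiles 36 and 1315). At 121 genes (12.9%) the nearest summits were over 10 kb apart, as at SF3B3. Genes with an overlapping pair were shorter (median 29213 against 42024 bp) and had a larger MYC fold enrichment (7.62, 95% CI 7.32 to 7.93, against 6.92, 6.70 to 7.16). Their Fra-1 fold enrichment was 8.82 against 8.40, with intervals that overlapped. ENO1 and FOSL1 belonged to the genes with an overlapping pair, with summits 150 and 89 bp apart.

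The motifs followed the factor more than the set, apart from genes with an overlapping pair. Each strongest summit was counted once, which left 2071 MYC summits for the 2646 genes with MYC alone and 1623 Fra-1 summits for the 1721 genes with Fra-1 alone. The E-box CACGTG was within 50 bp of 18.6% of the MYC summits with MYC alone (95% CI 17 to 20.3) and of 18.0% with both (15.5 to 20.8). At a stretch of the same length, 2 kb beside these MYC summits, it was found at 1.26% and 2.07%. The AP-1 motif was within 50 bp of 54.2% of the Fra-1 summits with Fra-1 alone (51.7 to 56.6) and of 45.0% with both (41.7 to 48.5), and at 1.73% and 1.69% of the stretches 2 kb beside them. In stretches of the same length (101 bp) at all canonical TSS, 3.30% held the E-box and 1.09% the AP-1 motif. MYC summits held the AP-1 motif in 0.628% of cases with MYC alone (13 of 2071) and in 9.50% with both. Within the genes with both, these were 15.6% of the summits where the peaks overlapped (77 of 493) and 0.305% where they did not (1 of 328). PRR7 and S100A2 above are examples. Where the peaks overlap, the 101 bp at a summit of either factor can cover the DNA at the summit of the other. A difference by overlap is therefore partly built into this split. Fra-1 summits held the E-box in 1.60% of cases with Fra-1 alone, in 6.96% with both where the peaks overlapped and in 1.82% where they did not. The AP-1 motif was at 39.6% of the Fra-1 summits in overlapping pairs and at 53.8% of those outside such pairs. A match is a description of the sequence and was not shown to be a binding site.

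**Figure D5:**
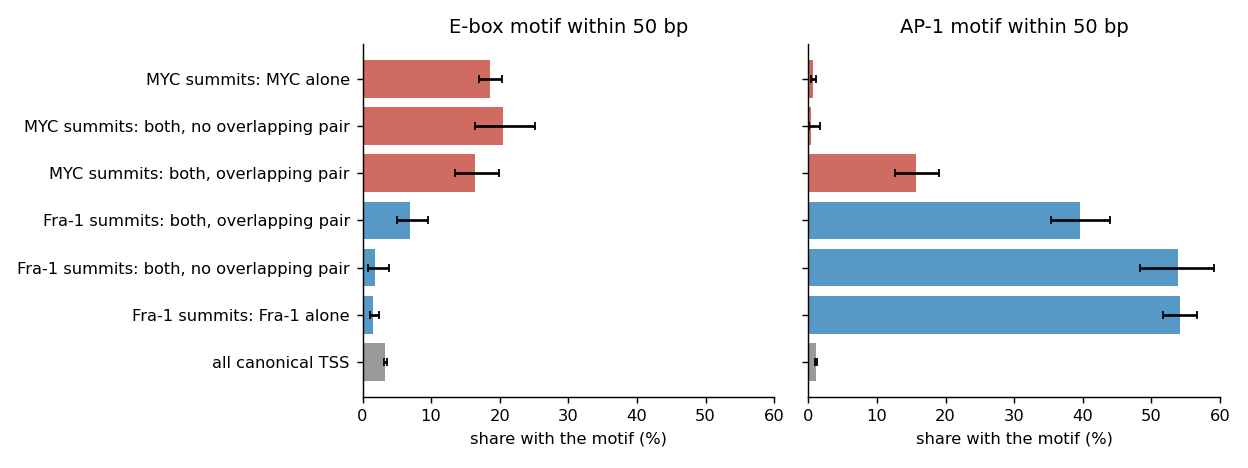
Share of the strongest summits with an E-box (left) or AP-1 motif (right) within 50 bp, in percent with 95% Wilson intervals, for MYC summits (red), Fra-1 summits (blue) and stretches of 101 bp at all canonical TSS (grey). The AP-1 motif stands at 54.2% of Fra-1 summits with Fra-1 alone, at 15.6% of MYC summits in overlapping pairs and at 0.628% of MYC summits with MYC alone. In overlapping pairs the stretches of the factors can cover the same DNA.

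Over the whole window of the canonical TSS, the motifs separated the sets less. The E-box was present in 62.4% of the windows of genes with MYC alone, 45.7% with Fra-1 alone, 58.4% with both and 46.5% of all genes. The AP-1 motif was present in 38.7, 57.6, 53.1 and 45.1%. The promoters also differed in CpG richness, though hardly in median GC content between MYC alone and Fra-1 alone. A stretch of 500 bp at the canonical TSS was CpG-rich (GC over 55%, observed over expected CpG over 0.65) for 87.6% of the genes with MYC alone, 67.5% with Fra-1 alone, 83.7% with both and 62.8% of all genes. The median GC content of this stretch was 66.4% with MYC alone, 67.8% with Fra-1 alone, 68.8% with both and 64.6% for all genes. At the summits, the median GC content was 64.4% for MYC summits with MYC alone and 51.5% for Fra-1 summits with Fra-1 alone. These are sites of different factors, and most of these Fra-1 summits lay over 1 kb from the canonical TSS. A divergent neighbour, with canonical TSS on opposite strands within 1 kb, was present at 24.2% of the genes with MYC alone, 6.52% with Fra-1 alone, 13.9% with both and 9.47% of all genes. DDX42 with CCDC47 is such a pair. When each peak was given only to its nearest gene, 2177 genes had MYC alone, 1673 had Fra-1 alone and 771 had both. By chromosome, MYC alone was found at 18.7% of the genes of chromosome 17 and 18.5% of chromosome 19, and at 4.95% of those on chromosome X. Fra-1 alone was found at 9.25, 5.68 and 3.22% of the genes on these chromosomes.

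The E2F1 library of the same cells gave a readout that the sets did not use. E2F1, a TF known for cell cycle genes, had a promoter peak at 99.7% of the genes with MYC alone, 89.5% with Fra-1 alone, 99.8% with both and 48.7% with neither. Its median fold enrichment at the bound genes was 32.1 with MYC alone, 16.9 with Fra-1 alone, 32.1 with both and 18.8 with neither. The E2F1 list had 36933 peaks, and 61.3% of all genes had an E2F1 promoter peak. By function, all 56 replication genes and all 70 mitosis genes had one, as did all 26 genes of the NF-kB list and all 31 of the YAP and TAZ list. The share was 99.1% for nucleolar ribosome biogenesis, 98.7% for mitochondrial ribosomal proteins and 26% for cytokines and chemokines. Single genes varied widely in E2F1 fold enrichment within a set. With Fra-1 alone, JUN had 63.6 and RTN4 51.2, while LAMA2 had 7.35 and IGFN1 had no E2F1 promoter peak. With MYC alone, RPL5 had 60.7 and KLF16 14.5, and RPL29, with both, had 71.1.

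The genes of the factors themselves and of the study's gene sets were looked up last. Of 22 AP-1 and related TF genes, FOSL1, JUNB and MAFG had both, and FOSL2, JUN, ATF3, MAFF and MAFK had Fra-1 alone. ATF4, FOSB and NRL had MYC alone, and the other 11, among them FOS and JUND, had neither. The share with Fra-1 alone was 22.7% (Wilson interval 10.1 to 43.4%), beside 8.56% of all genes. The share with MYC alone was 13.6% (4.75 to 33.3%), beside 13.2%. JUNB had 17.8 for Fra-1 and 11.1 for MYC, and JUN had Fra-1 at 7.63. Of 13 genes of the MYC network, which compete for or share the partners MAX and MLX, MNT, MXD1, MAX, MLX and MXI1 had MYC alone and MXD3 and MLXIP had both. MNT, a repressor that competes with MYC for MAX, led with a MYC fold enrichment of 12.2. MYC itself was among the 6 with neither. The share of this list with a MYC peak was 53.8% (Wilson interval 29.1 to 76.8%), beside 17.8% of all genes. The share with a Fra-1 peak was 15.4% (4.33 to 42.2%), and this interval includes the 13.2% of all genes. Of 11 genes of the E2F family, E2F3, E2F5, E2F6 and E2F8 had MYC alone and none had Fra-1. The Wilson interval for the share with MYC was 15.2 to 64.6% and includes the 17.8% of all genes. The interval for the share with Fra-1 had an upper limit of 25.9% and includes the 13.2% of all genes. E2F1 had neither and had an E2F1 fold enrichment of 46.6 at its own promoter. In the set of 9 genes that the study selected in these cells by other assays, PAICS (a purine synthesis enzyme, 11.4) and ADORA2B (an adenosine receptor, 8.67) had MYC alone, and SH3GL1 had Fra-1 alone at 9.91. SFN (14-3-3 sigma) had both, with 5.53 for MYC and 9.21 for Fra-1, and the other 5 had neither. For this set, the study reports coordinated promoter binding of the TFs it profiled. In the peak lists and windows used here, only SFN had a promoter peak of MYC and of Fra-1. All 9 genes had a promoter peak of E2F1. What lies behind this difference was not tested. Of the 31 genes of the larger Fra-1-dependent signature of the study, 10 had MYC alone, 3 Fra-1 alone, 4 both and 14 neither. These genes were selected by the study and are too few to set against the shares of all genes.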

How the data were processed

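ChIP-Seq peak lists of MYC, Fra-1 and, as a further readout, E2F1 were used, each from 1 library. EZH2 and input samples, and the fourth TF of the study, were not analysed here. The authors trimmed reads (Trimmomatic 0.27), aligned them with Bowtie 0.12.5 to hg19 and called peaks with MACS2 2.0.10.20120913 (q cutoff 0.01) per library against 1 input library. Per peak, the authors deposited a signal (the pileup at the summit), a ratio (the fold enrichment of this pileup over local background) and −log10 of p and q. Depth differs between libraries, so medians of fold enrichment were compared within a factor. The ranking of genes with both by their smaller value, the scatter plot of these genes and the paired values of single genes set the factors side by side. The size of one factor against the other at a gene is not to be read from them.

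Genes and TSS came from GENCODE 44 mapped to GRCh37 (146299 distinct TSS), and 279 genes without a canonical TSS were left out of values at canonical TSS. The strongest peak of a gene was the one with the largest fold enrichment. Lists of gene functions came from symbols and name patterns, and 1 further list and 1 sequence are not reported here. The genes named are the 10 strongest of each set, the 2 strongest of each factor in each list, the genes with extreme length or TSS number, and the genes of the study's sets. The members and lists were chosen with earlier results of these data known. C11orf68, and further genes of a list named by set, were named after their values were seen. No test was made, since there is 1 library per factor. The code of the assignment was checked on simulated data, in which 600 of 600 planted genes were found. The planted genes had windows that touch no window of another gene, so this check does not cover peaks shared between genes. Alternatives were other windows, TSS sets, cutoffs, peak numbers and strengths. Software was pandas 2.3.3 with numpy 2.4.6 under Python 3.11.15, scipy 1.17.1 for intervals, and matplotlib 3.10.9 for plots.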

Additional observations from a re-analysis of the deposited data

How the results depend on the processing

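Of 64 recomputed values of the 8 summary results (the 3 set sizes and 5 ratios), 43 stayed within the interval or, for set sizes, within 1.5 times the reported value. With canonical TSS only, 888 genes had Fra-1 alone and 559 both, the ratio of both to the product of shares was 2.44, the length ratio was 0.821 and the TSS ratio of both to MYC alone was 1.00. With basic transcripts, 1141 genes had Fra-1 alone, and these ratios were 2.22, 0.671 and 1.00. With equal peak numbers, 426 genes had Fra-1 alone and 263 both, the ratio to the product was 2.14 and the length ratio 0.406, and with a −log10 q of at least 5, 625 genes had both. The ratio to the product was 2.19 with windows of 1 kb either side, 2.15 with the nearest gene only and 1.61 within genes of the same TSS number, and the length ratio was 0.768 by exons. The strength ratios turned below 1 for MYC at a −log10 q of at least 5 (0.994) and for Fra-1 with −log10 q (0.979) or pileup (0.95) as strength, so neither direction held under all settings. These settings differ from the reported one by construction in the TSS, peaks or measure used. The order within the 32 lists turned for none with 1 kb windows, for 1 with canonical TSS (TGF-beta) and for 8 with equal peak numbers. No paired analysis was possible because each factor has 1 library. Depth limits the weakest peaks, and Fra-1, with fewer tags, had more peaks.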
